A study of Mus musculus with 6 samples.

Results

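The genes by which the small intestine takes up dietary fat and packs it into chylomicrons were followed in mice whose gut epithelium carried N-cadherin in place of E-cadherin. The list named 36 genes for fatty acid uptake, triglyceride synthesis, lipid droplets and chylomicrons. Of these 35 were measured and tested among 12994 genes in all, and Acsl1 was not analysed here. The 3 N-cadherin replacement samples had the genotype Ecadflox/Ncad;Vil-Cre, in which a recombinase driven by the villin promoter acts in gut epithelium on a floxed E-cadherin allele while the other allele encodes N-cadherin. The 3 control samples came from littermates that kept E-cadherin, and their genotype is given only as control, so whether they carried the floxed allele, the N-cadherin allele or Vil-Cre is unknown here. All mice were C57BL/6 and 14 days old, and all samples were epithelial cells shaken off the rinsed small intestine in EDTA, which can carry over other cells of the gut wall. Whether the 6 samples are 6 animals is not stated, so the tests measure the spread between samples, which may be technical. Messenger RNA was read on Affymetrix mouse arrays, 1 array per sample, as probe set intensities.

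Enterocytes take up fatty acids and monoacylglycerols from digested fat, bind them to fatty acid binding proteins, activate the fatty acids to acyl-CoA and rebuild triglyceride on the endoplasmic reticulum. The triglyceride is loaded by the microsomal transfer protein onto apolipoprotein B, and the resulting chylomicron leaves through COPII vesicles towards the lymph. Fat that is not exported at once is held in cytosolic lipid droplets, from which lipases release it again. Mice at this age are suckling, and milk is rich in fat.

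The samples carried the marks of absorptive epithelium. Of 14 enterocyte markers 13 were measured, and their summed intensity was 26063.9 to 31747.9 in replacement samples and 30214 to 31522.4 in control samples. Among them Krt20, a keratin of the villus tip, was higher in replacement samples and Anpep, a brush border peptidase, was lower. Krt20 had 3797.7, 3167.2 and 3231.1 in replacement samples and 1882.3, 925.1 and 945.5 in control samples, which lifts the sum. Lct, Slc5a1, Mep1a and Dpp4 also lay lower on every replacement array than on every control array. Only Krt20 lay higher on every one, so the overlapping sums do not show equal enterocyte content. Cdh1, which encodes E-cadherin, had intensities of 1073, 1174.6 and 1356.6 in replacement samples, against 2757.4, 2334.8 and 2203.5 in control samples, a fall of 2.09-fold (limma adjusted p = 0.025). Both probe sets of Cdh2, which encodes N-cadherin, lay under the intensity of 16 that was used as the floor on all 6 arrays and so did not check the label. The SD of the log2 ratio of control 2 to control 3 was 0.115 over 5109 bright probe sets, against 0.347 to 0.564 for the other pairs within a group, and were therefore averaged and counted as 1 sample. Sex, read from Xist and Y-linked genes, was female for replacement 2, replacement 3 and control 1, and male for replacement 1, control 2 and control 3.

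**Figure D1:**
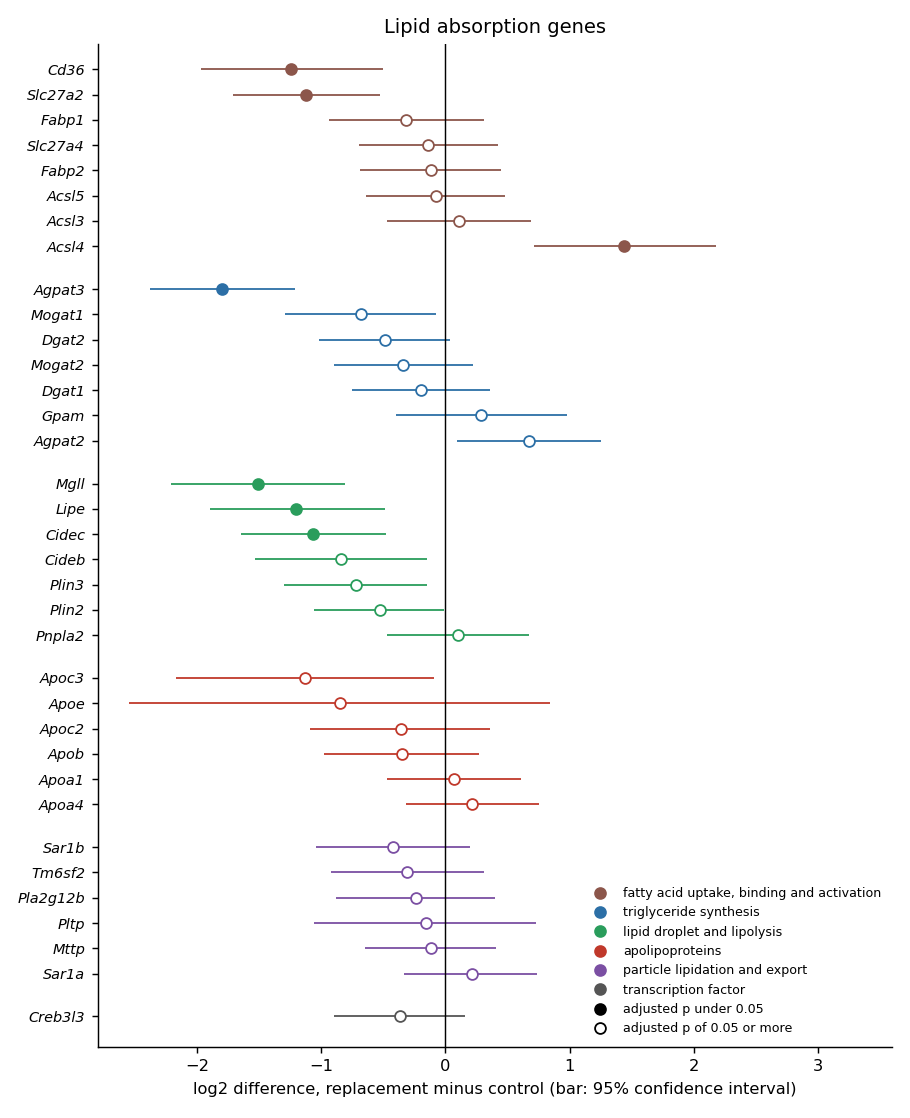
Difference of each of the 35 measured genes, replacement minus control, on the log2 scale (horizontal axis), with its 95% confidence interval, grouped by role. Filled points passed the test (6 genes lower, Acsl4 higher), and most of the other points lie left of 0 with intervals that include it.

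Over the whole list 6 genes were lower in replacement samples and 1 was higher at a limma adjusted p under 0.05. That is 17.1% lower, against 4.66% of all genes tested, and 2.86% higher, against 4.46% of all genes tested. The list was chosen with earlier results of these data known, so such shares describe the chosen genes only. The lower genes were Cd36 and Slc27a2 in fatty acid uptake, Agpat3 in glycerolipid synthesis, and Cidec, Lipe and Mgll in lipid droplets and lipolysis, and the higher one was Acsl4. The median difference over the 35 genes was -0.34 on the log2 scale, against -0.02 over all genes tested, and 77.1% of the list lay below 0, against 52.0% of all genes. In 13 genes (37.1%) every replacement array lay below every control array, against 18.8% of all genes, and in 2 genes (5.71%) every replacement array lay above, against 17.8%. The differences of 21 genes were within 0.5 of 0 on the log2 scale. Among them was most of the machinery that rebuilds triglyceride and forms the particle. The share of all genes within that range was not counted, so the number describes the listed genes only. In bulk samples such as these, fewer cells of a type and less RNA per cell cannot be told apart.

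The promoters of 4 of the 7 genes that passed are printed here because each has a single start in the promoter table and the genes moved together or, for Acsl4, the other way. The sequences are those of RefSeq on assembly GRCm38.p6, 250 bases upstream of the listed start, on the strand of the gene, and capitals mark matches to the motifs searched. For Cd36, Acsl4 and Agpat3 the listed start lies inside the annotated span of the gene, so other starts may exist upstream.
Cd36, chr5:17835897-17836146, minus strand: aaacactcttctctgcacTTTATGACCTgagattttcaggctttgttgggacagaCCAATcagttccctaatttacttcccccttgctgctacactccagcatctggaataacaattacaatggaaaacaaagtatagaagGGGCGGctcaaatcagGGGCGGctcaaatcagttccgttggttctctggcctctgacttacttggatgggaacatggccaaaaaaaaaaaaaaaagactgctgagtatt
Slc27a2, chr2:126552774-126553023, plus strand: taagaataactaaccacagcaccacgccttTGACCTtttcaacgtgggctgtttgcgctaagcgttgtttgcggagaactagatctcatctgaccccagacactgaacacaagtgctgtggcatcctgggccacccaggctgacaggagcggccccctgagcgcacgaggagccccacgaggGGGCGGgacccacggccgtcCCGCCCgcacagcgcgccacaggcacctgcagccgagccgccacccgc
Acsl4, chrX:142390536-142390785, minus strand: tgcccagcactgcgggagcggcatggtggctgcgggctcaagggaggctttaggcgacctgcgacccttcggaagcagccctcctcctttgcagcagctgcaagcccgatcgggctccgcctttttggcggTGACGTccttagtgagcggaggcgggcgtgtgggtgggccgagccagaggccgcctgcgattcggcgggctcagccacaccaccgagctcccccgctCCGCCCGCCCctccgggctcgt
Agpat3, chr10:78351701-78351950, minus strand: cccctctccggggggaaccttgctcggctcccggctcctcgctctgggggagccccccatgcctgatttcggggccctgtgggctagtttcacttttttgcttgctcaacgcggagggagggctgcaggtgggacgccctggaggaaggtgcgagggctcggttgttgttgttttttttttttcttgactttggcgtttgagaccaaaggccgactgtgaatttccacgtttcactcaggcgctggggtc

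Both strands were searched for the nuclear receptor core site AGGTCA, the same core site repeated in one orientation with 1 base between, the core TGACGT of the cAMP response element, the GATA site AGATAA, the CDX2 site TTTATG, the CCAAT box by its name, the GC box GGGCGG and the TATA box TATAAA. The Cd36 window held a CDX2 site that begins 232 bases before the start and overlaps a core site at 228, a CCAAT at 195, and GC boxes at 109 and 93. The Slc27a2 window held a core site 220 bases before the start and GC boxes at 68 and 48. In Acsl4 the core of the cAMP response element lay 119 bases before the start, and a pair of overlapping GC boxes lay at 22 and 18. Agpat3 held none of these letters in its window. Such matches are common. Of 32536 promoter windows of the same length, 14.0% held the core site, 6.5% TGACGT, 9.97% AGATAA, 10.8% TTTATG, 33.8% CCAAT, 33.0% the GC box and 12.3% TATAAA. Among the 30 listed genes with a window, 7 held the core site, 4 TGACGT, 2 AGATAA, 3 TTTATG, 10 CCAAT, 14 the GC box and 4 TATAAA. None held the repeat, which 0.0338% of all windows held. A gene was counted if any of its windows matched, and some genes have more than 1 window. These counts of genes and the shares of single windows are therefore not in the same unit.

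Fatty acid uptake, binding and activation was measured by 8 genes, of which 2 were lower and 1 was higher. That is 25.0% lower, against 4.66% of all genes tested, and 12.5% higher, against 4.46%. Cd36, the scavenger receptor that binds long-chain fatty acids at the brush border, had intensities of 290.6, 284.5 and 262.5 in replacement samples, against 976, 449.5 and 436.7 in control samples. Every replacement array was below every control array, and control 1 stood well above the other controls. The fall was 2.36-fold (log2 difference -1.24, SE 0.327, limma adjusted p = 0.0462), and the 3 probe sets of the gene gave -1.42 to -1.06. Without control 1, in a fit that leaves a single control replicate, the difference was -0.67. Slc27a2, an acyl-CoA synthetase of very long chain fatty acids that also acts in fatty acid uptake, had 378.2, 486.1 and 423.4 in replacement samples and 1133.9, 772.1 and 755.4 in control samples. The groups did not overlap, and the fall was 2.18-fold (log2 difference -1.12, SE 0.263, adjusted p = 0.0288).

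Slc27a4, the fatty acid transport protein FATP4 of the enterocyte, overlapped between the groups, with 1401.7, 999.4 and 1115.3 in replacement samples against 1181.6, 1327.1 and 1455.7 in control samples. Its log2 difference was -0.14, with a 95% interval of -0.7 to 0.42. Fabp2, the intestinal fatty acid binding protein, had 5090.5, 3468.8 and 4482 in replacement samples and 4906.7, 4235.5 and 4635.2 in control samples (difference -0.12, interval -0.69 to 0.45). Replacement 2 was the lowest of the 6 arrays. For Fabp1, the liver-type binding protein that is also abundant in the jejunum, the brightest probe set read 5306.8, 3140.9 and 4710 in replacement samples and 5318, 5194.3 and 5504.6 in control samples (difference -0.32, interval -0.94 to 0.31). The second probe set of Fabp1 read 4281.3, 1930.6 and 3555 in replacement samples and 6489.9, 5479.1 and 5777.5 in control samples, a difference of -0.97 without overlap, so the probe sets of this gene differ in size.

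The acyl-CoA synthetases went different ways. Acsl4, which prefers arachidonate, had 44.9, 74.5 and 65.8 in replacement samples, against 29.9, 16.4 and 16.5 in control samples, all dim values near the floor of 16. Each replacement array was above each control array, and the rise was 2.72-fold (log2 difference 1.44, SE 0.327, limma adjusted p = 0.0257), with 1.29 from the second kept probe set. Acsl5, a synthetase of the enterocyte that feeds triglyceride synthesis, had 4405.8, 3159.9 and 4240.3 in replacement samples and 4222.1, 3925.4 and 4106.7 in control samples. The arrays overlapped, and the difference of -0.08 had an interval of -0.64 to 0.48. Acsl3, a synthetase of endoplasmic reticulum and lipid droplets, showed a difference of 0.11 (interval -0.47 to 0.69), and its 3 probe sets ranged from -0.7 to 0.32, so no direction is given for it.

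**Figure D2:**
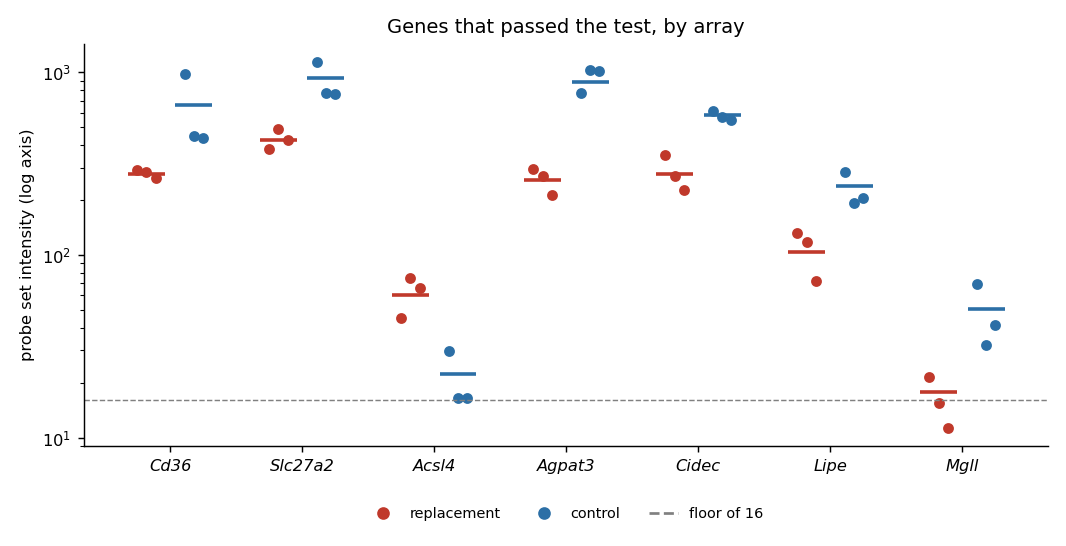
Probe set intensity on a log axis for the 7 genes that passed the test, with replacement arrays left of control arrays (points) and the geometric mean of each group (bars, with control 2 and control 3 as 1 sample and values under 16 counted as 16). Each gene separates the groups, control 1 is the highest array for Cd36, Slc27a2, Cidec, Lipe and Mgll, and Acsl4 and Mgll lie near the floor of 16 (dashed line).

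In triglyceride synthesis 1 of 7 genes was lower (14.3%, against 4.66% of all genes tested), with a median difference of -0.34 over the group. Agpat3, an acyltransferase that adds the second acyl chain to the glycerol backbone and also serves phospholipid synthesis, showed the largest fall of the list. Its intensities were 293.8, 269.6 and 211.6 in replacement samples, against 771.4, 1027.7 and 1018.6 in control samples. All replacement arrays were far below all control arrays, a fall of 3.47-fold (log2 difference -1.8, SE 0.259, limma adjusted p = 0.00299), and all 4 probe sets lay lower, with differences of -1.89 to -1.29. Agpat2, the acyltransferase of the same step whose loss causes lipodystrophy in humans, had 1588, 1310.1 and 1065.7 in replacement samples and 747, 868.6 and 936.9 in control samples. Here every replacement array lay above every control array, yet the difference of 0.67 (interval 0.09 to 1.25) did not pass the adjusted test (adjusted p = 0.146).

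The enzymes of the final steps did not pass. Mogat2, the monoacylglycerol acyltransferase that starts the main route of resynthesis in the intestine, had 1603.6, 1298.5 and 1121.1 in replacement samples, against 1575.6, 1713.1 and 1848.4 in control samples. The groups overlapped through replacement 1, and the difference was -0.34 (interval -0.9 to 0.22). Dgat1, which adds the last acyl chain, had 1762.5, 1364.7 and 1229 in replacement samples and 1681.6, 1605.1 and 1613.3 in control samples (difference -0.2, interval -0.75 to 0.36), with a probe set that several transcripts may share, by its suffix. Dgat2, the second enzyme of that step, had 2472, 1899.2 and 2252.2 in replacement samples and 3119.9, 2902.5 and 3171.7 in control samples. Although no array of Dgat2 overlapped, the difference of -0.49 (interval -1.02 to 0.04) did not pass (adjusted p = 0.242). A second bright probe set of Dgat2, also without overlap, gave -0.68, and the mean of its probe sets, at -0.58, did not pass either. Gpam, the mitochondrial enzyme that adds the first acyl chain to glycerol phosphate, had a difference of 0.29 (interval -0.4 to 0.98). Mogat1, a monoacylglycerol acyltransferase that is not the main one of the intestine, was under the floor on all 3 replacement arrays and at 33, 17.7 and 22.7 in control samples, which bounds its difference as at least 1.61-fold lower (adjusted p = 0.149).

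The lipid droplet and lipolysis genes had the lowest median of the role groups, -0.84 on the log2 scale, and 3 of 7 were lower. That is 42.9% lower, against 4.66% of all genes tested. In 6 of the 7 (85.7%) every replacement array lay below every control array, against 18.8% of all genes. These 7 were listed with earlier results of these data known, so the shares describe the chosen genes only. Among 15 other droplet and lipolysis genes, described below, 1 was lower and the median was 0.11. Cidec, which lets lipid droplets grow by transfer of lipid between them, had 350.9, 270.4 and 225.8 in replacement samples, against 611.1, 566.1 and 545.9 in control samples. Its fall was 2.1-fold (log2 difference -1.07, SE 0.26, limma adjusted p = 0.0342), larger than the spread within either group. Lipe, the hormone-sensitive lipase that cleaves diacylglycerol and cholesteryl esters, had 131.6, 117.6 and 71.9 in replacement samples and 285.4, 191.7 and 204.8 in control samples, a fall of 2.29-fold (log2 difference -1.2, SE 0.315, adjusted p = 0.0449). Mgll, the lipase that splits monoacylglycerol, had 21.6, 15.4 and 11.3 in replacement samples and 69, 32.3 and 41.6 in control samples. Replacement 2 and 3 were under the floor, so the fall of Mgll was at least 2.84-fold (adjusted p = 0.017, log2 difference -1.51 with SE 0.311), and its 4 probe sets gave -1.51 to -0.57.

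Plin2, the coat protein found on most lipid droplets, had 2159.1, 1856.1 and 1713.4 in replacement samples, against 2897.8, 2684.8 and 2548 in control samples. The arrays did not overlap, and the difference of -0.53 (interval -1.06 to -0.01) did not pass the adjusted test (adjusted p = 0.198). Plin3, a coat protein that moves onto new droplets, had 1739.1, 1332.4 and 1220 in replacement samples and 2097.6, 2576.7 and 2629.7 in control samples (difference -0.72, interval -1.3 to -0.15, adjusted p = 0.117). Cideb, a relative of Cidec that acts in the lipidation and transport of lipoproteins of the liver, had 1275.5, 806.6 and 644.2 in replacement samples and 1476.2, 1642.4 and 1656.2 in control samples. Replacement 1 lay nearest to the controls, and the difference was -0.84 (interval -1.53 to -0.15, adjusted p = 0.128), on a probe set shared by several transcripts. Pnpla2, which encodes the lipase that opens triglyceride breakdown, overlapped with 312.3, 236.3 and 210.2 in replacement samples and 228, 249.2 and 224.2 in control samples (difference 0.1, interval -0.47 to 0.67).

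Several of these genes are also strong in fat cells or macrophages. Of 8 adipocyte markers 6 were on the array, and their summed intensity was 95.5 to 107 in replacement samples and 69.6 to 138.6 in control samples. Adipoq, Lep and Cidea, which define fat cells, were under the floor on all 6 arrays. The 10 macrophage markers summed to 1206 to 1943.6 in replacement samples and 2732.2 to 3255.1 in control samples. Csf1r was the brightest of them, at 1271.4, 777.1 and 737.6 in replacement samples and 2427, 2442.5 and 2504 in control samples. It made up most of each sum, so the lower sum is mainly that of 1 gene. Lyz2, the next brightest, overlapped, with 320.3, 222.5 and 232.9 in replacement samples and 456.4, 172.4 and 142.5 in control samples. Cd14 of the same list went the other way and passed, with 151.3, 166.9 and 125 in replacement samples and 28.2, 20.3 and 19.1 in control samples. C1qa, C1qb and C1qc, products of tissue macrophages, were at 34.8, 46 and 17 on replacement 1 and 73.4, 104 and 56 on control 1, and under the floor on the other 4 arrays. The 8 fibroblast markers summed to 355.2 to 451.4 in replacement samples and 184.2 to 1139 in control samples, with control 1 the highest. The C1q genes and fibroblast markers were highest on control 1. A fit without control 1 leaves a single control replicate, so only its log2 differences are given here. They were -0.94 for Lipe, -1.05 for Mgll and -1 for Cidec, against -1.2, -1.51 and -1.07 with all arrays. For Cd36 the difference was -0.67, and for Apoe, described below, 0.47. The part of such cells in these values was not tested further.

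Of the 6 apolipoproteins none passed limma's test in either direction, against 4.46% higher and 4.66% lower among all genes tested. With so few genes, none of 6 lies near that share. Before adjustment 1, Apoc3, was under 0.05. Apob, the scaffold on which the chylomicron is built, had 4633.7, 3143.1 and 2878 in replacement samples, against 4970.3, 3799 and 4113.5 in control samples. Replacement 1 lay within the range of the controls and the other 2 replacement arrays below it, for a difference of -0.35 (interval -0.98 to 0.27), and a dim second probe set gave 0.24. Apoa4, which is made during fat absorption, had 4954.4, 3782.2 and 4818.5 in replacement samples and 3915.5, 3619.4 and 4060.1 in control samples. That difference was 0.21 (interval -0.32 to 0.75), with overlapping arrays. Apoa1, the main protein of high density lipoprotein, had 6802.7, 5183.7 and 6675.6 in replacement samples and 6062.9, 5472.7 and 5940.4 in control samples (difference 0.07, interval -0.47 to 0.61). Replacement 1 of Apoa1 is the highest intensity in the whole table, and whether signals this bright are compressed was not tested.

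Apoc3, which slows the clearance of triglyceride-rich particles, varied more among replacement arrays than any other listed gene except the dim Apoe. Its intensities were 3711.5, 976.8 and 1958.2 in replacement samples, against 4380.2, 3810.4 and 4288.6 in control samples. The arrays did not overlap, but the replacement arrays had an SD of 0.96 in log2 units, against 0.08 between the control replicates. The difference of -1.13 (interval -2.17 to -0.09) did not pass (limma adjusted p = 0.165), and without replacement 1 it was -1.61 and passed (adjusted p = 0.0275). Apoc2, the cofactor that activates lipoprotein lipase, had 5902.3, 2777.9 and 4582.5 in replacement samples and 5761.9, 4964.6 and 5277.1 in control samples (difference -0.36, interval -1.09 to 0.36). As for Apoc3, replacement 2 was the lowest array. Apoe, the ligand through which remnants are cleared, was dim, with 69, 22.9 and 10.7 in replacement samples and 132.4, 21.2 and 21.3 in control samples. Its replicates spread so widely that the difference of -0.85 had an interval of -2.55 to 0.84, and without control 1 it was 0.47.

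**Figure D3:**
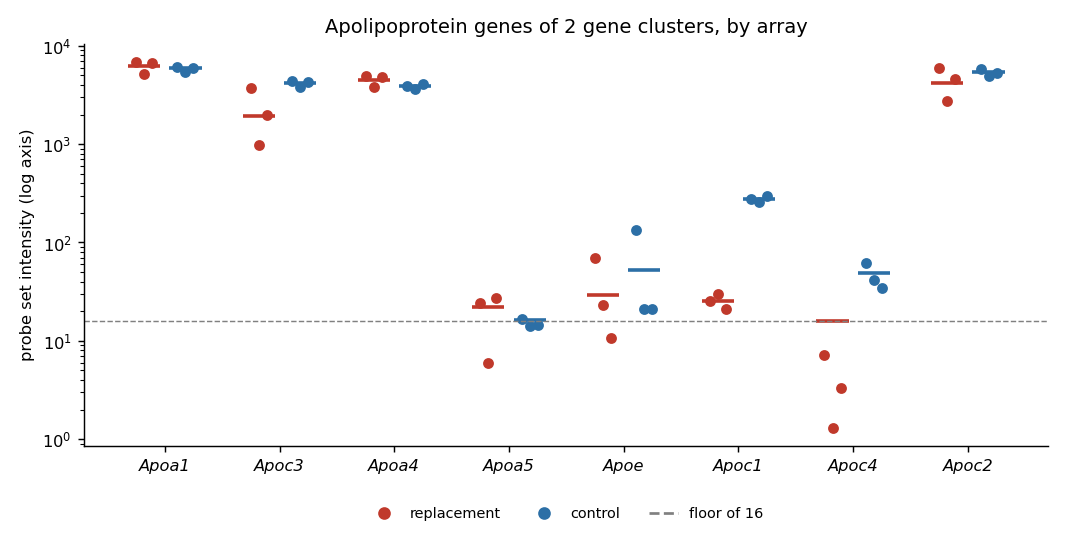
Probe set intensity on a log axis for the apolipoprotein genes of 2 clusters of neighbouring genes, replacement arrays left of control arrays (points), with the geometric mean of each group after flooring (bars) and the floor of 16 (dashed line). Apoc1 and Apoc4 separate the groups, while Apoa1, Apoa4 and Apoc2 overlap and Apoc3 has a wide spread among replacement arrays.

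These apolipoprotein genes sit in clusters, and neighbours did not share 1 pattern. On chromosome 9 Apoa1, Apoc3, Apoa4 and Apoa5 follow each other in the RefSeq gene order. Apoa5, a regulator of plasma triglyceride made by the liver, was near the floor, and its difference of 0.42 did not pass (adjusted p = 0.411), so none of these 4 genes passed. On chromosome 7 Apoe, Apoc1, Apoc4 and Apoc2 are neighbours, and both genes that were not on the list of 36 passed. Apoc1, an inhibitor of lipoprotein uptake and of lipid transfer, had 25.5, 30.2 and 21 in replacement samples, against 274.1, 260.1 and 294.8 in control samples, a fall of 10.9-fold (log2 difference -3.45, SE 0.247, adjusted p = 8.14e-05). Apoc4 was under the floor on all replacement arrays and at 62, 41.5 and 34.3 in control samples, which makes it at least 3.02-fold lower (adjusted p = 0.00673). Apoc2, next to Apoc4, kept a geometric mean of 4220 in replacement samples and 5430 in control samples.

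The 6 genes of particle lipidation and export all had differences within 0.5 of 0, a share not counted over all genes. With limma none passed, against 4.46% higher and 4.66% lower among all genes tested, and none of 6 lies near that share. Before adjustment 0 were under 0.05, against 1482 higher and 1677 lower of the 12994 genes tested. Mttp, which encodes the lipid-loading subunit of the microsomal transfer protein, had 3812.5, 3003.1 and 3618.5 in replacement samples, against 3973.9, 3481.5 and 3632 in control samples. The arrays overlapped, and the difference of -0.12 had an interval of -0.65 to 0.41, so a fall by more than 0.65 on the log2 scale lies outside it. Sar1b, the COPII GTPase whose loss causes chylomicron retention disease in humans, had 2924.4, 2121.5 and 1713.8 in replacement samples and 3059.4, 2736.8 and 2903.4 in control samples (difference -0.42, interval -1.04 to 0.2). Its paralog Sar1a had 317.5, 382.4 and 418.7 in replacement samples and 309, 338.9 and 327.8 in control samples (difference 0.21, interval -0.33 to 0.74). Neither GTPase separated the groups.

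Tm6sf2, a membrane protein of the endoplasmic reticulum needed for full lipidation of lipoproteins, had 1691.8, 1255.8 and 1002 in replacement samples, against 1659.9, 1524.2 and 1523.6 in control samples (difference -0.31, interval -0.92 to 0.31). Pla2g12b, a catalytically inactive phospholipase relative that acts in lipoprotein secretion, had 977.2, 648.3 and 564.7 in replacement samples and 778.5, 906.4 and 907.2 in control samples (difference -0.24, interval -0.88 to 0.4). In both genes replacement 1 was the highest array of all and the other 2 replacement arrays the lowest. Pltp, the phospholipid transfer protein, ranged from 93.9 to 271.7 in replacement samples and from 175.5 to 226.7 in control samples (difference -0.16, interval -1.06 to 0.73), read by a shared probe set. Creb3l3, a membrane-bound transcription factor of liver and small intestine that drives several apolipoprotein genes, had 1746.6, 1381.8 and 1588.2 in replacement samples and 2166.5, 1864.3 and 1927.5 in control samples. Its arrays did not overlap, and the difference of -0.37 (interval -0.9 to 0.16) did not pass (adjusted p = 0.38).

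**Figure D4:**
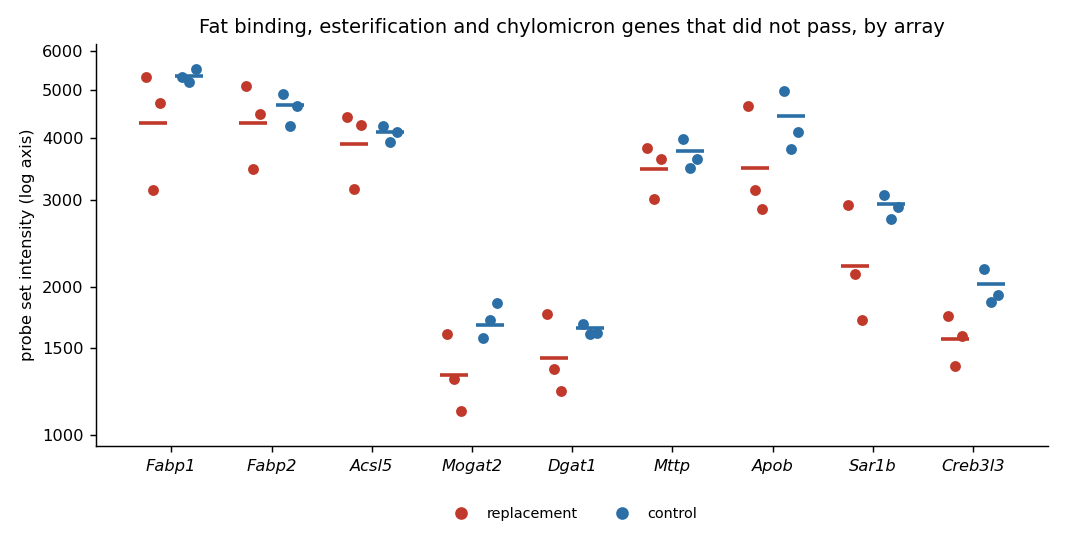
Probe set intensity on a log axis for genes of fatty acid binding, esterification, particle assembly and control that did not pass the test, replacement arrays left of control arrays (points), with the geometric mean of each group (bars). Except for Creb3l3 the groups overlap, and in each gene replacement 2 or replacement 3 is the lowest array.

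The replacement arrays did not move as one over the list. Replacement 3 was the lowest of all 6 arrays in 16 of the 35 genes (45.7%) and replacement 2 in 11 (31.4%), against 19.0% and 19.6% of all genes tested. Replacement 1 was the lowest array in 3 genes (8.57%), against 17.2% of all genes. Replacement 1 was also the male of its group. Each sex held a single control replicate, so the sexes are set side by side as values and no test between them is given. Markers of pancreatic acinar cells set the same arrays apart. Their 5 measured genes summed to 3185.3 and 2460.7 on replacement 2 and 3 and 1855.9 on control 1, the females, against 405.3 on replacement 1 and 657.5 and 697.2 on control 2 and 3, the males. Cpa1, a pancreatic carboxypeptidase, was at 546.5 and 245 on replacement 2 and 3 and 123.3 on control 1, and under the floor on the 3 male arrays. Sex and this acinar marker signal therefore cannot be told apart in what follows, and the source of the signal was not tested. Between the female arrays (replacement 2 and 3 against control 1) 30 of the 35 genes lay below 0, with a median of -0.55. Between the male arrays (replacement 1 against the mean of control 2 and control 3) 17 lay below 0, with a median of 0.01. The corresponding medians over all genes tested were -0.05 in females and 0 in males.

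The 7 genes that passed lay on the same side of 0 in both sexes. This had to be so, since their replacement and control arrays did not overlap. Agpat3 differed by -1.69 in females and -1.8 in males, Slc27a2 by -1.32 and -1.01 in the same order, and Acsl4 by 1.23 and 1.45. Cd36 differed by -1.84 in females and -0.61 in males, Mgll by -2.11 and -0.76, Lipe by -1.63 and -0.59, and Cidec by -1.31 and -0.66. In 17 of the 35 genes, a share not counted over all genes, the sign differed between the sexes, and the 7 could not be among them. Apoe was the farthest apart, at -2.79 in females and 1.7 in males, followed by Apob at -0.72 and 0.23, Apoc2 at -0.69 and 0.21 and Pltp at -0.44 and 0.45. With sex as a block all 7 genes passed, Cd36 with a difference of -1.31 (adjusted p = 0.0207).

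**Figure D5:**
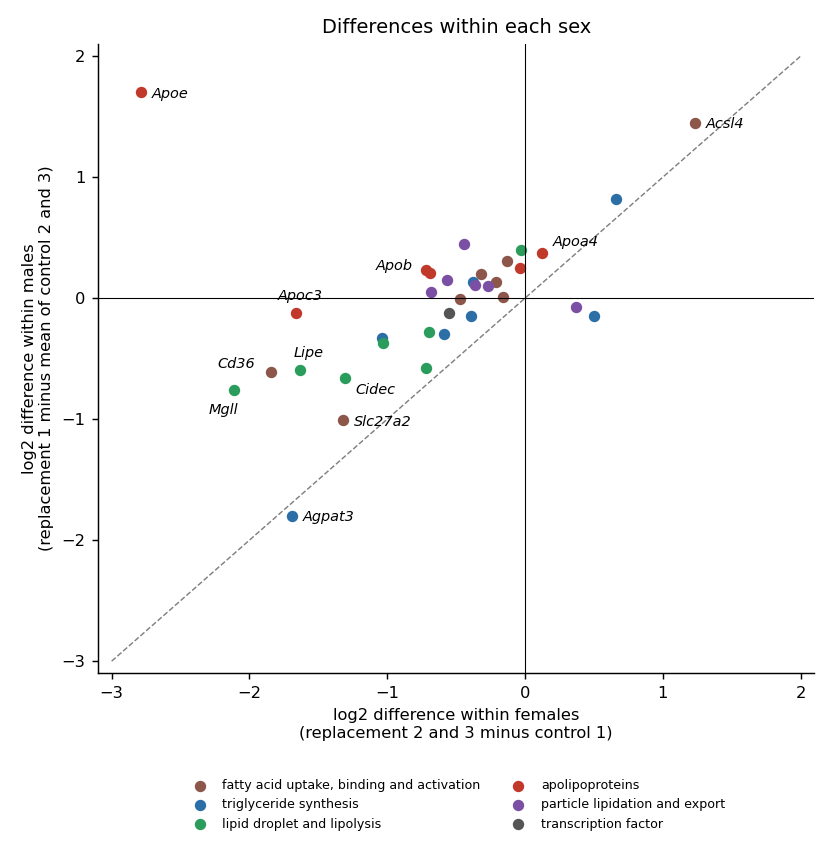
Difference, replacement minus control, on the log2 scale within females (horizontal axis) and within males (vertical axis) for the 35 measured genes, coloured by role. The dashed line marks equal differences: Agpat3 lies close to it and most points lie above it. The signs differ in 17 points, a share not counted over all genes, and Apoe is the farthest of these from the line.

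Each array was also left out in turn. All 7 genes kept their direction in every such fit, which arrays that do not overlap require. All 7 lost the call without control 1 and without the pair of control 2 and 3, fits in which a single control replicate is left. Agpat3 kept its call without any one of the replacement arrays (limma adjusted p = 0.00659 to 0.0286). The other 6 lost theirs without replacement 2 and without replacement 3, with adjusted p between 0.0647 for Slc27a2 and 0.17 for Cd36. Their differences in these fits were close to those with all arrays for Cd36 (-1.25 without replacement 2 and -1.19 without replacement 3, against -1.24), Slc27a2 (-1.22 and -1.12, against -1.12), Acsl4 (1.29 and 1.38, against 1.44) and Mgll (-1.44 in both, against -1.51). Those of Cidec (-1.05 and -0.92, against -1.07) and Lipe (-1.29 and -0.93, against -1.2) were lower in size without replacement 3. Without replacement 1 Cd36 alone was lost (adjusted p = 0.067), and Cideb, at -1.11, joined Apoc3 among the genes that passed.

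Further genes of fat handling, outside the list of 36, were counted by 5 lists, to be read against the 4.46% of all genes that were higher and the 4.66% that were lower. In other triglyceride synthesis 2 of 17 measured genes were higher, and the median difference was 0.11. Mboat1, a lysophospholipid acyltransferase, had 782.8, 1180.8 and 1176.9 in replacement samples, against 49.5, 59 and 59.5 in control samples, a rise of 19-fold (limma adjusted p = 4.76e-05). Agpat4, a paralog of Agpat3, had 252.1, 260.4 and 238.6 in replacement samples and 89, 84 and 86.5 in control samples, 2.87-fold higher (adjusted p = 0.00325), with a probe set that may cross-hybridize, by its suffix. Every array of both genes separated the groups, in the direction opposite to Agpat3. In other lipid droplet and lipolysis genes 1 of 15 was lower, 6 of 15 lay below 0 and the median was 0.11, against -0.84 for the 7 listed droplet genes. The lower one was Hsd17b13, a lipid droplet protein best known from liver, at 153.5, 306.5 and 231.3 in replacement samples and 1426.6, 1354.4 and 1345.6 in control samples, 6.26-fold lower (adjusted p = 0.00104).

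Among other genes of chylomicron assembly and export 3 of 29 were lower, Apoc1 and Apoc4, described above, and Plagl2, with 4.66% of all genes as the background. This list lay near balance, with 15 of 29 below 0 and a median of -0.14. Plagl2, a zinc finger factor without which suckling mice fail to absorb fat, had 368.6, 348.1 and 365.1 in replacement samples, against 671.3, 812.4 and 733.4 in control samples, 2-fold lower (log2 difference -1, SE 0.226, limma adjusted p = 0.0257). Its arrays were far apart between the groups and close within them. Among luminal digestion and sterol uptake genes 4 of 19 were lower and 1 was higher, with a median of -0.23. The sterol exporters of the brush border Abcg5 (2.43-fold, adjusted p = 0.012) and Abcg8 (2.52-fold, adjusted p = 0.0105), the cholesterol exporter Abca1 (4.07-fold, adjusted p = 0.0183) and the secreted phospholipase Pla2g2a (2.56-fold, adjusted p = 0.0464) were lower. Anxa2, a calcium-dependent membrane binding protein, was 1.98-fold higher (adjusted p = 0.0298).

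Of 33 measured regulators of these genes 4 were lower and 1 was higher, against 4.66% lower and 4.46% higher among all genes, and the median was -0.15. Nr0b2, the repressor SHP that bile acids induce, had 87.5, 54.6 and 39 in replacement samples, against 280.1, 209.6 and 195 in control samples, 4.17-fold lower (limma adjusted p = 0.00673). Tfeb, a factor of lysosomal and lipid breakdown genes, was 2.68-fold lower (adjusted p = 0.00596), and Prdm1, a repressor that marks the suckling epithelium, was 2.11-fold lower (adjusted p = 0.0252). Nr1i2, the xenobiotic receptor PXR, was 1.86-fold lower (adjusted p = 0.0417). Pparg, a fatty acid-activated nuclear receptor that drives Cd36 and Cidec in fat cells, was 2.53-fold higher, at 140.9, 188.8 and 137.7 in replacement samples and 73.6, 59.2 and 42.9 in control samples (adjusted p = 0.0157). Its direction was thus the opposite of that of Cd36 and Cidec on the same arrays. Hnf4a, a nuclear receptor that acts on many enterocyte lipid genes, had 2421.3, 1894.2 and 2633.9 in replacement samples and 2157.6, 2246.8 and 2200.4 in control samples (difference 0.07, interval -0.48 to 0.62). Ppara, the fatty acid receptor of the fasting response, had 80.1, 62 and 71.1 in replacement samples and 135.7, 93 and 94.5 in control samples, without overlap, and its difference of -0.67 (interval -1.26 to -0.09) did not pass (adjusted p = 0.145). Nr1i2, Pla2g2a, Hnf4a and Ppara were chosen for naming after their values were seen.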

How the data were processed

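RNA of 6 samples was hybridized to Affymetrix mouse arrays. The values deposited by the authors are linear intensities of 45101 probe sets, already brought to a trimmed mean of 100 per array (2% trimmed at each end). The submitters' processing notes name GCRMA and limma without version or order, and how the intensities were summarised is not stated. Intensities were floored at 16 and log2 was taken, so differences of dim genes are understated. Probe sets with 16 or more on at least 3 of 6 arrays entered, and the brightest one with 1 gene symbol in the platform annotation stood for its gene (12994 genes). Genes listed here had 61 probe sets, of which 58 were kept. Of 15 genes with several, 12 had them all in one direction, and Acsl3, Apob and Pnpla2 did not.

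Control 2 and control 3 were averaged as 1 replicate. Their SD of 0.115 lay within the range of 18 hybridization control probe sets over all pairs of arrays (0.0812 to 0.134), though above the value for this pair (0.0824), and a fit with 6 separate arrays is an alternative. The fit (lmFit and eBayes of limma 3.58.1, R 4.3.3) took 3 replacement and 2 control replicates. Benjamini-Hochberg adjustment ran over 12994 genes with a threshold of 0.05. A difference is the replacement mean minus the control mean of log2 values, intervals are 95%, and each SE is that of the moderated fit. The number of arrays limits the precision. The steps were tested on simulated data of 12994 genes with 200 changed. At a log2 change of 1 they recovered 0 of the 200, with 0 false calls, and at 2 they recovered 139, with 5 false calls. In the data 580 genes were called higher and 605 lower, more than were changed in the simulation. The recovered counts are therefore not estimates for these data.

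Named genes were all 36 listed, Cdh1, Cdh2, and of each further list up to 4 genes with the smallest p among those that passed. Members and lists were chosen with earlier results of these data known. Alternatives were separate controls, the replicate block, other floors, filters and normalizations, other uses of probe sets, eBayes options, array weights, sex as a block and each array left out. The comparison of sexes was added after the data were seen. Promoters are from RefSeq (GRCm38.p6). Figures were drawn with matplotlib 3.10.9.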

Additional observations from a re-analysis of the deposited data

How the results depend on the processing

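The count of genes higher and lower, 580 and 605, was 1118 and 1234 with control 2 and control 3 as separate replicates, 994 and 1108 with all 6 arrays and the replicate block, 884 and 926 with array weights, 72 and 88 with a floor at 64, and 70 and 92 with no filter. Leaving out replicates gave 3 to 827 higher and 1 to 833 lower genes. Of the listed genes 1 was higher and 6 were lower. This became 0 and 0 with a floor at 64 and with no filter, 0 higher with a filter at 64, and 3 lower when every probe set was tested, and leaving out replicates gave 0 to 1 higher and 0 to 7 lower. With a floor at 64 Acsl4 differed by 0.09 and Mgll by -0.05, since most of their arrays lay under it. The filter at 64 left 31 of the listed genes, without Acsl4 and Mgll, neither of which was tested there. For the other settings the cause was not tested.

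Same-numbered samples of the groups did not deviate together (correlations -0.02, 0 and -0.05), so they share only a number. With the replicate block all 7 calls were kept and Apoc3 was added at -1.11 (adjusted p = 0.0418). Quantile normalization lost Cd36, the mean of all probe sets lost Mgll, and leaving out control 2 alone lost Cd36 and control 3 alone lost Lipe. Over the alternatives Agpat3 ranged from -2 to -1.59 and kept its call in 16 of 20, Slc27a2 in 14, Cidec in 13, Lipe in 12 and Cd36 in 10 of 20, and Acsl4 in 13 and Mgll in 12 of 19. All 7 kept their direction, which arrays that do not overlap require in the fits that only leave arrays out. Genes that had not passed changed sign in 8 fits. With the mean of probe sets Acsl3 was at -0.09 and Pnpla2 at -0.1. Leaving out replicates moved Acsl3 over -0.18 to 0.4, Pnpla2 over -0.06 to 0.23, Apoe over -2.17 to 0.47, Fabp2 over -0.24 to 0.03, Acsl5 over -0.17 to 0.07 and Pltp over -0.49 to 0.28. Mogat1 and any gene wholly under a floor of 64 gave no value there.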
